A study of Mus musculus with 12 samples.

Results

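The genes described here are 10 immediate early genes, Fos, Fosb, Fosl2, Jun, Junb, Jund, Atf3, Ier2, Dusp1 and Zfp36, taken by their symbols from the 49997 genes that both count tables hold. All 10 had counts in all 12 libraries. The libraries were made from poly(A) RNA of sorted mouse thymocytes in 4 groups of 3 libraries. DP cells carry both the CD4 and the CD8 co-receptor, and CD4 cells have kept CD4 alone. The thymus was either wild type (WT) or one in which Satb1, the gene of a chromatin organiser of T cells, was knocked out (KO) by tamoxifen. All 4 groups, WT included, are labelled as tamoxifen-treated. The labels give neither the strain and age of the mice nor the Cre driver and the floxed exons, and they do not say whether libraries came from separate mice. The p-values therefore measure only the spread between these libraries, which may be technical. Each library carries a batch number equal to its replicate number, so replicates 1, 2 and 3 are batches 1, 2 and 3 in every group.

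FOS and JUN proteins are basic leucine zipper factors that pair with each other to form AP-1, which binds DNA and switches on genes after a stimulus. Their genes are immediate early genes: they are induced without new protein synthesis, the messages are short-lived, and the products are soon restrained. In thymocytes they are known as targets of T cell receptor signals passed on by MAP kinases, and they also respond to stress. FOS, FOSB and FOSL2 must pair with a partner, whereas JUN proteins can also pair among themselves, and ATF3 is a related zipper protein induced by stress. IER2 is a nuclear protein of the same early response. DUSP1 is a phosphatase that switches MAP kinases off, and ZFP36 (tristetraprolin) binds AU-rich elements in messages and speeds their decay, so both restrain the response.

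The sequences upstream of 3 AP-1 genes are shown because binding sites for factors of the CREB, ATF and AP-1 families there are known switches of these genes. They are RefSeq sequences of GRCm38.p6, 250 bases ending just before the annotated start, printed on the gene's strand. Capitals mark TGACG, the shared part of the CREB and ATF site, in Fos and Junb, and TGACATCA, a variant AP-1 site, in Jun.
Fos (chr12:85473640-85473889, plus strand): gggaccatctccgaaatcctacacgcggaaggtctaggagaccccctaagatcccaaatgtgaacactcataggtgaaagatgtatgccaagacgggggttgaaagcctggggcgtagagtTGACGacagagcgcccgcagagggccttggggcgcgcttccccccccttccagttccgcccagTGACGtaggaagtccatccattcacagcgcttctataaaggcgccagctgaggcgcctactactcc
Jun (chr4:95052223-95052472, minus strand): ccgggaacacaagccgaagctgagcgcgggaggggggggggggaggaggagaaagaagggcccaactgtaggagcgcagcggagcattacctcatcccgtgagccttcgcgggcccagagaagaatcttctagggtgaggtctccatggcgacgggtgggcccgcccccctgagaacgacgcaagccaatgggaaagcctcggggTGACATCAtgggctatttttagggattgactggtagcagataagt
Junb (chr8:84978749-84978998, minus strand): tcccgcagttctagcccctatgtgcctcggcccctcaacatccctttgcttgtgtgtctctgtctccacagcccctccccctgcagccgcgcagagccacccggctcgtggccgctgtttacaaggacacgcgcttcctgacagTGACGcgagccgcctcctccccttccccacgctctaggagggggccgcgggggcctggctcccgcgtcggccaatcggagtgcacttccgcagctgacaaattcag
RefSeq windows were found for 9 of the 10 genes, Ier2 being the one without an entry. TGACG, searched on both strands, was in 5 of the 9 windows (Fos, Fosb, Junb, Atf3 and Dusp1) and in 17.8% of the 32851 windows of the same length. In Fos it lay at -129 to -125 and at -66 to -62 from the start, and in Junb at -106 to -102. In 8 of the 9 windows the start is that of the gene in the deposited annotation. The RefSeq start of Fosb, at 19310045, lies inside the deposited gene, which reaches 19310118. Its TGACG, at -60 to -56, is thus within that gene and not upstream of it. The windows of Fosb, Fosl2, Atf3, Dusp1 and Zfp36 overlap an exon of 1 of the 10 genes in GENCODE M21. TGACATCA was in Jun alone of the 9, at -45 to -38, and in 2.93% of all windows. The AP-1 consensus TGANTCA was in none of the 9 and in 6.75% of all windows, which says only that these letters are not in these 250 bases. Sites further upstream, of this or any other motif, were not searched. The full CREB site TGACGTCA, which holds TGACG on both strands, was in Dusp1 (1.55% of all windows), and a CArG box, the site of serum response factor, was in Zfp36 (1.47% of all windows). Both are shown with their flanks, the site in capitals.
Dusp1 (chr17:26508598-26508625, minus strand): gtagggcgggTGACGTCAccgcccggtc
Zfp36 (chr7:28379267-28379296, minus strand): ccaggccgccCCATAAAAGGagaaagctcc

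AU-rich elements in the 3′ untranslated region are shown because they are the sites at which ZFP36 acts. The longest annotated 3′ untranslated region of each gene was searched, without correction for its length. The nonamer TTATTTATT was in that of 4 of the 10 genes, one of them Zfp36 itself, and in that of 7.60% of 20968 genes (GENCODE M21, GRCm38). The regions of Dusp1, Fos and Zfp36 have 690, 815 and 774 bases and that of Fosl2 has 4653, where the median over all genes is 954. One site of each is printed with its flanks, the nonamer in capitals.
Dusp1: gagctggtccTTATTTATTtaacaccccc
Fos: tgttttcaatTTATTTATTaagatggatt
Fosl2: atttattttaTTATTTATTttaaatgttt
Zfp36: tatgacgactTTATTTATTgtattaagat
The shorter core ATTTA was more frequent per kb than the all-gene median of 1.23 in 8 of the 10, with 5.80 per kb in Dusp1, 4.91 in Fos, 4.12 in Junb and 3.88 in Zfp36. Fosb, with 0.434 per kb, and Ier2, with no ATTTA, were the exceptions. A match is a description of the letters and not evidence of binding.

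Total counts ran from 22790504 to 62422640 per library, and replicate 3 was the shallowest library in all 4 groups. CPM, counts scaled to a common library size, were computed after TMM normalization. Satb1, the targeted gene, stood at 3862 ± 28.2 CPM (SD, n = 3) in DP WT and 2608 ± 231 in DP KO, and at 3271 ± 258 in CD4 WT and 1498 ± 40.7 in CD4 KO. Its log2 fold change was -0.56 ± 0.08 (SE) in DP and -1.12 ± 0.08 in CD4, and KO libraries lay below WT libraries in both, which checks the direction of the labels but cannot show how complete the deletion was. DP WT replicates 1 and 2 held 0.844 and 0.273 CPM of Xist, where the other 10 had between 190 and 601 CPM. Ddx3y, a Y-linked gene, was at 40.3 to 127 CPM in all 12 libraries. The other 10 libraries thus held transcripts of both sexes, and these 2 nearly none of Xist. The summed level of 12 DP markers was 13909 to 15109 CPM in DP WT and 2309 to 2797 in CD4 WT. That of 9 mature CD4 markers was 2046 to 2119 and 3570 to 3793 CPM. In KO the DP markers summed to 8426 to 8664 CPM in DP and 3460 to 4036 in CD4 cells, and the mature CD4 markers to 1630 to 1695 and 2072 to 2278 CPM. DP and CD4 libraries were thus apart in both sums within WT and within KO. CD4 KO differed from CD4 WT, however: its DP markers summed higher, and its mature CD4 markers summed lower, near the sum of DP WT. Both sums hold Cd4 and Cd3e, and not every mature marker was near its DP WT level. Zbtb7b stood at 3.46 ± 1.61 CPM in DP WT, 386 ± 29.3 in CD4 WT and 31.5 ± 10.8 in CD4 KO. Ccr7 stood at 7.51 ± 1.64, 343 ± 16.9 and 37.7 ± 11.6 CPM, and Cd4 at 1426 ± 54.3, 1110 ± 99.7 and 657 ± 48.6 CPM. The part of this difference between CD4 KO and CD4 WT in the CD4 KO results was not tested. Fewer cells of a kind and less RNA per cell cannot be told apart in such bulk samples.

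Each of the 10 genes varied more between libraries of a group than most genes of like level. Fos stood at 90.3, 65.0 and 180 CPM in DP WT replicates 1, 2 and 3, at 71.1, 121 and 391 in DP KO, at 217, 109 and 396 in CD4 WT and at 265, 245 and 532 in CD4 KO. Replicate 3 was the highest library in each of the 4 groups. The pooled SD within groups was 0.92 on the log2 CPM scale for Fos, 0.94 for Fosb, 0.82 for Junb, 0.75 for Dusp1, 0.67 for Jun and 0.52 for Jund. Genes of like level, within 0.5 of the same average log2 CPM, had a median SD of 0.0906 for Fos and of 0.0895 to 0.0943 for the other 5. At least 98.8% of such genes had a smaller SD than each of these 6 genes. Zfp36 (0.27) and Ier2 (0.29) varied least among the 10, yet still more than 97.5% and 97.9% of genes of like level. Atf3 had an SD of 1.10 and Fosl2 of 0.36, larger than in 97.6% and 86.7% of genes of like level, and both had low counts in DP. Over all genes, whatever their level, the median SD was 0.21, and 57.8% had a smaller SD than Zfp36, 60.3% than Ier2 and 66.1% than Fosl2.

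**Figure D1:**
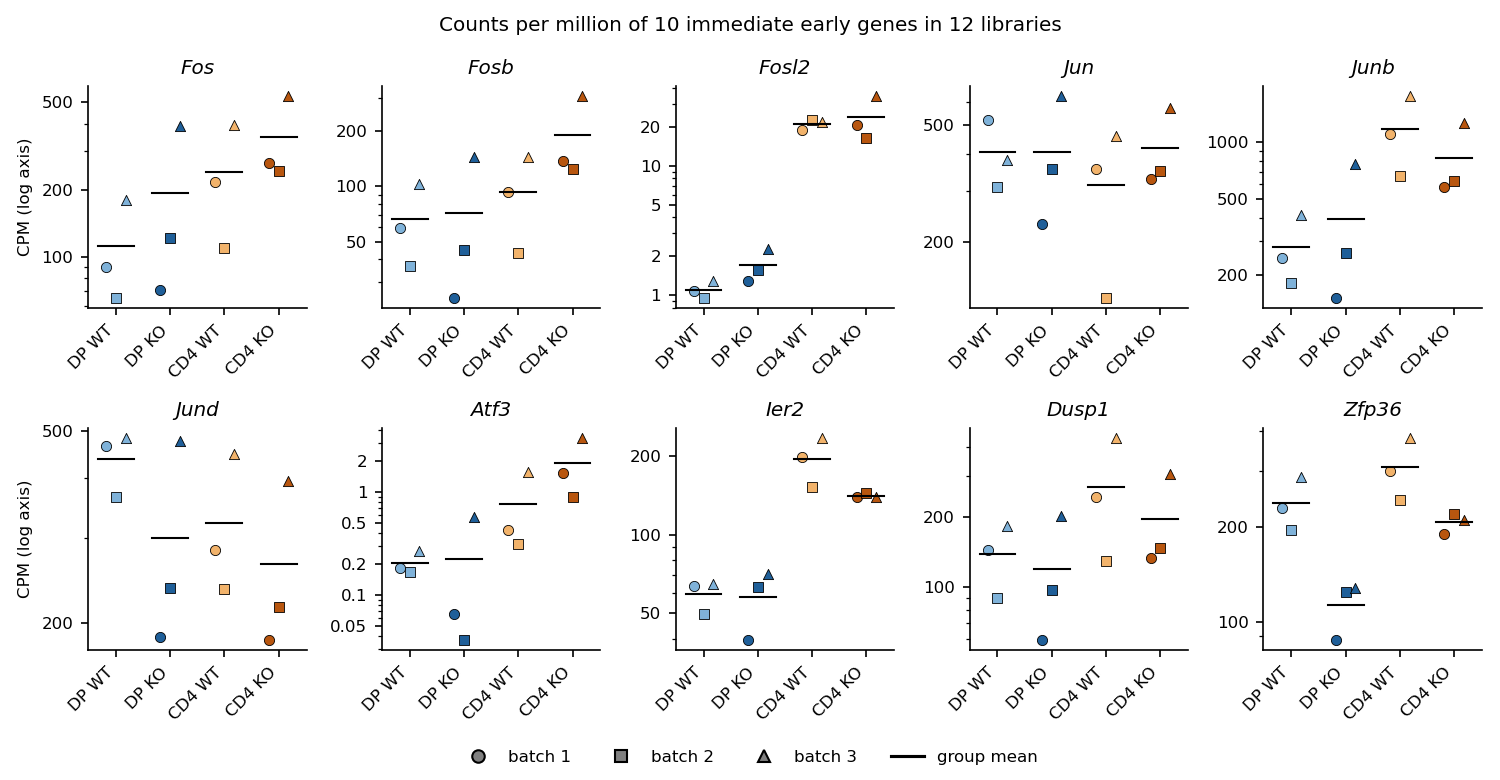
CPM (log axis) of the 10 genes in each of the 12 libraries, by group; circles, squares and triangles are batches 1, 2 and 3 and lines are group means of 3 libraries. The triangle is the highest point of all 4 groups for Fos, Fosb, Junb, Jund, Atf3 and Dusp1, as in Fos with 180, 391, 396 and 532 CPM.

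Replicate 3, the library of batch 3, stood high for most of the 10 genes. It was the highest library in all 4 groups for 6 of them (Fos, Fosb, Junb, Jund, Atf3 and Dusp1), which was the case for 8.25% of 18431 genes, and in 3 of the 4 groups for the other 4. DP WT replicate 2 was the lowest of its group for all 10 genes, and DP KO replicate 1 for 9 of 10. In a model over 12 libraries with group and batch, batch 3 lay above the mean of batches 1 and 2 by 1.41 ± 0.26 (log2, SE) for Fos, 1.38 ± 0.29 for Fosb, 1.24 ± 0.25 for Junb and 1.10 ± 0.24 for Dusp1. The difference was 0.80 ± 0.17 for Jund, 0.70 ± 0.32 for Jun, 0.52 ± 0.14 for Fosl2, 0.32 ± 0.12 for Zfp36 and 0.26 ± 0.16 for Ier2. The p-values of the batch term are of a test for any difference among the 3 batches, not of these differences. Atf3, at 1.88 ± 0.33, was the 1 gene of the 10 that passed it (edgeR, adjusted p = 0.0128). Of all genes 5.06% passed, and 3.3% passed with batch 3 above the mean of batches 1 and 2. Atf3 entered this fit only through its CD4 libraries, with 2 to 25 reads in the DP libraries. It did not pass without DP KO replicate 3 (adjusted p = 0.0504), CD4 WT replicate 3 (0.0580) or CD4 KO replicate 3 (0.0615). Fos, Fosb, Junb, Jund and Dusp1 had adjusted p-values of 0.0619 to 0.103, and these 5 and Atf3 were called with limma-voom and by edgeR without its robust option. Leaving out DP KO replicate 1 gave Fos, Fosb and Junb adjusted p-values of 0.00576, 0.00846 and 0.0112. Jund passed without DP WT replicate 1 (0.0345) or DP WT replicate 3 (0.0193), and Fosl2 without CD4 WT replicate 2 (0.0385) or CD4 WT replicate 3 (0.0324). This test was added after the libraries had been seen to differ. Batch 3 libraries also had the lowest summed level of 10 myeloid markers in every group, 77.4 to 108 CPM where the others had 96.1 to 177, of 6 erythroid markers, 23.4 to 67.9 against 63.4 to 332 CPM, and of 7 B cell markers, 6.27 to 20.9 CPM where the others had up to 30.1. The part of depth and of these cells in the difference was not tested. The myeloid markers were all counted in every library, and Ighm, of the B cell markers, was at 0 in all 12.

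**Figure D2:**
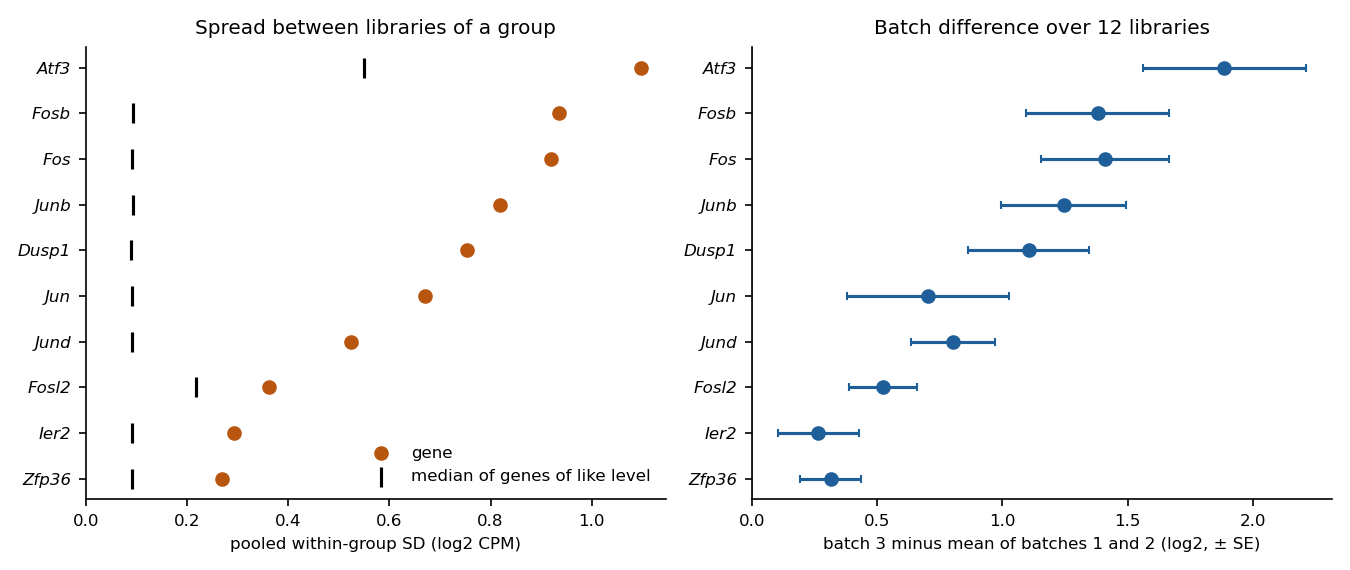
Left, pooled SD of log2 CPM within groups of each gene (points) and the median of genes of like level (bars). Right, batch 3 minus the mean of batches 1 and 2 (log2, with SE) over 12 libraries. Atf3, too low in DP to be tested there, has the largest difference, 1.88, and Ier2 the smallest, 0.26.

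Genes of 4 of the 7 pathway lists also passed the test over the 3 batches. They are named higher where batch 3 lay above the mean of batches 1 and 2, as for 3.3% of all genes. Of 40 tested among the other immediate early genes, 9 were called, all higher, among them Btg1 (0.51 ± 0.06, adjusted p = 0.0012), an inhibitor of proliferation, and Per1 (0.56 ± 0.07), a clock gene. In the list of other AP-1 and zipper partners 5 of 19 were called higher (Atf4, Maff, Bach1, Nfil3 and Jdp2), Maff with 1.25 ± 0.18. Dusp5, a nuclear ERK phosphatase, rose by 1.52 ± 0.13 and was the 1 of 10 MAP kinase phosphatases called. Zfp36l2, a paralogue of Zfp36, was higher by 1.08 ± 0.10 and Zfp36l1 by 0.35 ± 0.05, the 2 called of 11 proteins that bind AU-rich elements. The median difference was 0.30 for the other immediate early genes and 0.12 for the AP-1 partners, against -0.01 over all genes. In the other lists edgeR called 0 of 7 EGR and NR4A genes (median -0.09), 0 of 25 upstream kinases and serum response factor partners (-0.01) and 0 of 15 heat shock genes (0.17). At an unadjusted p under 0.05 there were 3, 8 and 4 of these, and limma-voom called 2, 2 and 1, all higher.

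The comparison of KO with WT in DP cells asked how the genes differ between the genotypes at that stage. DP WT replicates 1 and 2 held nearly no Xist, unlike all DP KO libraries, so the groups also differ in sex make-up. The part of this difference was not tested. Zfp36, which encodes the decay factor, fell, and it was the only one of the 9 tested genes that passed, where 30.9% of all genes were called and 14.1% were called lower. Zfp36 (chromosome 7, 28376784 to 28379228 of mm10, minus strand, 2 exons) stood at 229, 195 and 288 CPM in DP WT replicates 1, 2 and 3 and at 87.5, 125 and 128 in DP KO. Every KO library lay below every WT library, and KO was lower in all 3 batches. The mean fell from 237 ± 46.9 to 113 ± 22.6 CPM (SD, n = 3), and the log2 fold change was -1.05 ± 0.19 (SE; edgeR's quasi-likelihood test, adjusted p = 0.00529). The call held under all 17 alternative settings, with -1.34 to -0.89. One of them kept DP WT replicate 3 as the lone WT library, so that its spread came from the KO libraries alone. With the batch number as a block it was again the 1 gene called, among 31.1% of all genes. DP WT replicate 3, the WT library with Xist, had the highest Zfp36 level of the 3.

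The FOS family did not pass in DP. Fos (chromosome 12, 85473890 to 85477274, plus strand) was at 112 ± 60.4 CPM in WT and 194 ± 172 in KO, with overlapping libraries. Its estimate was 0.81 ± 0.84 (log2, adjusted p = 0.543) and turned to -0.18 without DP KO replicate 3. Fosb (chromosome 7, 19302696 to 19310118, minus strand) stood at 59.0, 37.0 and 102 CPM in WT and 24.6, 45.3 and 144 in KO, so that the WT libraries lay within the KO range. Its log2 fold change was 0.12 ± 0.84 (adjusted p = 0.939), and -0.89 without DP KO replicate 3 and -0.19 without DP WT replicate 2. Fosl2 (chromosome 5, 32136472 to 32157840, plus strand), the FOS relative with the lowest level, had 1.07, 0.944 and 1.29 CPM in WT and 1.30, 1.56 and 2.26 in KO. Its KO libraries all lay above its WT libraries, by a narrow margin, and its log2 fold change of 0.65 ± 0.30 did not pass (adjusted p = 0.129). Groups that do not overlap were found for 2 of the 9 genes, Fosl2 and Zfp36, and for 45.3% of all genes.

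The JUN family did not pass in DP either. Jun (chromosome 4, 95049036 to 95052222, minus strand), a gene of a single exon, had 522, 310 and 382 CPM in WT and 230, 355 and 628 in KO. The group means, 405 ± 108 and 404 ± 203 CPM, were nearly the same, while the 3 KO libraries spanned a wider range. Its log2 fold change of 0.01 ± 0.45 (adjusted p = 0.995) was -0.17 without DP WT replicate 2, -0.04 without DP WT replicate 3 and -0.44 without DP KO replicate 3. Junb (chromosome 8, 84976909 to 84978748, minus strand), which encodes a weaker activator than JUN, had 244, 181 and 413 CPM in WT and 150, 261 and 768 in KO. The KO libraries enclosed the WT range, and 0.50 ± 0.76 (adjusted p = 0.684) became -0.41 without DP KO replicate 3. Jund (chromosome 8, 70697739 to 70700616, plus strand), the JUN member known for steady expression, had 465, 365 and 483 CPM in WT and 187, 237 and 476 in KO. KO replicates 1 and 2 lay below all WT libraries and KO replicate 3 within their range. Its log2 fold change was -0.54 ± 0.41 (adjusted p = 0.4), and without DP KO replicate 3 it was -1.02 (adjusted p = 0.00158). Jund counts are uncertain, because the annotation places the gene a further time on a fix sequence and reads can be shared between the copies.

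Atf3 (chromosome 1, 191170296 to 191183333, minus strand) was too low in DP to be tested: 8, 8 and 6 reads in WT and 4, 2 and 25 in KO, that is 0.183, 0.168 and 0.268 CPM against 0.0657, 0.0367 and 0.577. A limit of 3 counts corresponds to 0.0465 to 0.134 CPM, which DP KO replicate 2 did not reach. Ier2 (chromosome 8, 84661331 to 84662852, minus strand) had 63.7, 49.6 and 64.9 CPM in WT and 39.4, 63.0 and 70.5 in KO. These ranges overlap, and the log2 fold change was -0.04 ± 0.22 (adjusted p = 0.928). It was 0.01 without DP WT replicate 1, 0.02 without DP WT replicate 3 and 0.19 without DP KO replicate 1. Dusp1 (chromosome 17, 26505591 to 26508472, minus strand), the MAP kinase phosphatase, had 145, 89.7 and 184 CPM in WT and 59.1, 97.4 and 202 in KO. Its log2 fold change was -0.21 ± 0.58 (adjusted p = 0.824), with 0.03 without DP WT replicate 3 and 0.12 without DP KO replicate 1. Of the 9 tested genes 6 (Fos, Fosb, Jun, Junb, Ier2 and Dusp1) thus took the opposite sign without replicate 3 of DP WT or of DP KO. The same 6 were lower in KO in batch 1 and higher in both other batches. Without all libraries of batch 3, 2 of the 9 genes were called, Zfp36 and Jund (-0.95, adjusted p = 0.0106), both lower, against 35.7% of all genes.

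**Figure D3:**
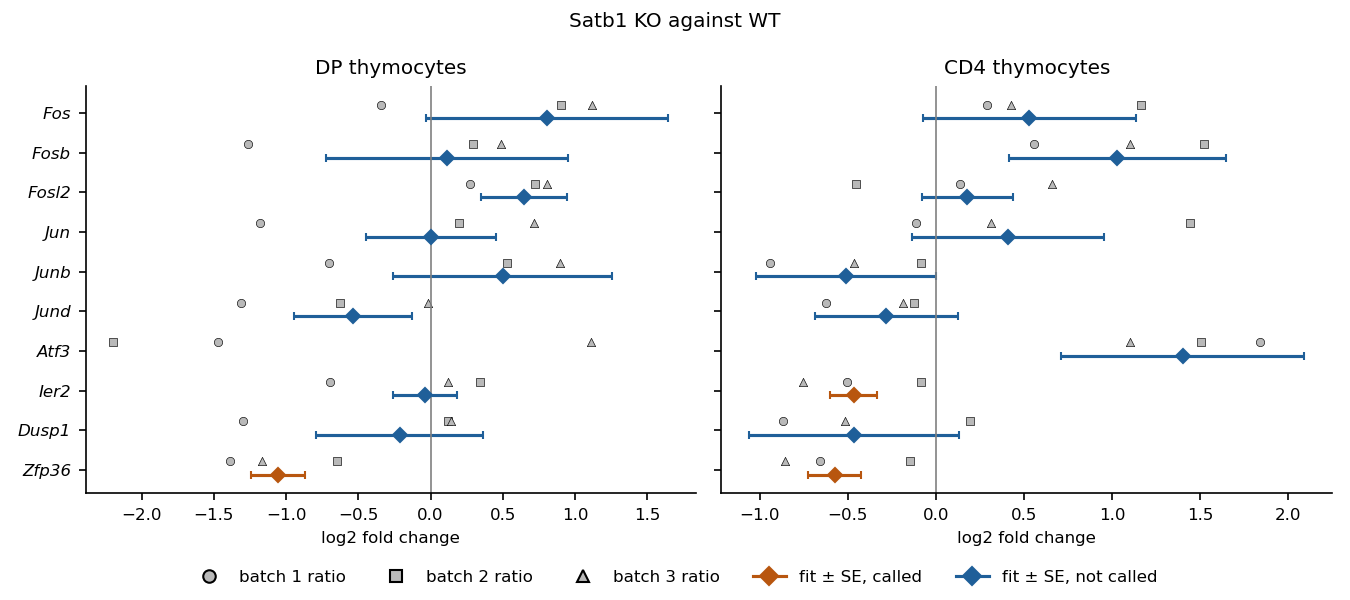
Log2 fold change of KO against WT in DP (left) and CD4 cells (right): grey symbols are the ratios within batches 1, 2 and 3, diamonds the edgeR estimate with SE, orange where called. Zfp36 lies at -1.05 in DP and -0.57 in CD4, and its ratios are below 0 in all 3 batches of both.

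In CD4 cells the same question gave 2 genes of the 10 that passed, Zfp36 and Ier2, both lower in KO, where 39.7% of all genes were called and 18.8% were called lower. Zfp36 stood at 299, 242 and 380 CPM in CD4 WT replicates 1, 2 and 3 and at 190, 219 and 210 in CD4 KO. Every KO library lay below every WT library, and the means were 307 ± 69.4 and 206 ± 14.8 CPM. The log2 fold change was -0.57 ± 0.15 (edgeR, adjusted p = 0.0174). Ier2 had 199, 153 and 235 CPM in WT and 140, 144 and 139 in KO, again without overlap, which held for these 2 genes of the 10 and for 51.9% of all genes. The KO libraries lay within a range of 1.04-fold and the WT libraries within 1.53-fold, and the log2 fold change was -0.47 ± 0.14 (adjusted p = 0.0252). With the batch as a block neither passed, at adjusted p = 0.0538 for Zfp36 and 0.0545 for Ier2. Over 16 alternatives the adjusted p ran up to 0.0680 for Zfp36, which passed in 13, and up to 0.114 for Ier2, which passed in 9. Without CD4 KO replicates 1 or 3 Zfp36 had 0.0587 and 0.0680. Ier2 had 0.0734 without CD4 WT replicate 1 and 0.0675, 0.0582 and 0.0883 without CD4 KO replicates 1, 2 and 3.

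Among the FOS and ATF genes in CD4, KO means were higher than WT means but the libraries overlapped. Fos went from 241 ± 145 to 347 ± 160 CPM (0.53 ± 0.60, adjusted p = 0.556). Fosb had 93.3, 43.3 and 144 CPM in WT and 137, 124 and 309 in KO, and was higher in KO in all 3 batches, at 1.03 ± 0.61 (log2, adjusted p = 0.266) and, with the block, 1.06 ± 0.24 (0.0525). Fosl2 had 19.0, 22.7 and 21.9 CPM in WT and 20.8, 16.6 and 34.7 in KO. Its estimate of 0.18 ± 0.26 (adjusted p = 0.635) was -0.17 without CD4 KO replicate 3. Atf3, with 22, 17 and 46 reads in WT and 73, 58 and 143 in KO, stood at 0.424, 0.317 and 1.54 CPM and at 1.52, 0.898 and 3.31. Only WT replicate 3 lay in the KO range, and KO was higher in all 3 batches. The log2 fold change was 1.40 ± 0.69 (adjusted p = 0.149), but 1.45 ± 0.30 with the block (0.00209) and 2.35 without CD4 WT replicate 3 (0.0128). Over its 16 alternatives the adjusted p ran from 0.00103 to 0.403.

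The JUN genes and Dusp1 were not called in CD4 KO. Jun had 355, 129 and 459 CPM in WT and 328, 351 and 572 in KO, or 0.41 ± 0.55 as a log2 ratio (adjusted p = 0.621). Its lowest library of all was CD4 WT replicate 2. Junb had 1110, 666 and 1754 CPM in WT and 578, 628 and 1272 in KO, lower in KO in all 3 batches, with -0.51 ± 0.51 (adjusted p = 0.505) and overlapping ranges. Jund had 284, 235 and 447 CPM in WT and 185, 216 and 394 in KO, also lower in all 3 batches. Its log2 fold change of -0.28 ± 0.41 (adjusted p = 0.647) was -0.31 ± 0.10 with the block and then passed (adjusted p = 0.0410), and it was 0.03 without CD4 WT replicate 3. Dusp1 had 245, 130 and 439 CPM in WT and 134, 148 and 306 in KO, with -0.46 ± 0.59 (adjusted p = 0.606) and 0.07 without CD4 WT replicate 3. With the block 2 of the 10 genes were called, Atf3 higher and Jund lower, against 44.8% of all genes (23.5% higher and 21.4% lower). Without the libraries of batch 3 it was 3, Atf3 higher (1.70, adjusted p = 0.00416) and Jund (-0.37, 0.0290) and Zfp36 (-0.40, 0.0324) lower, against 42.3% of all genes.

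The comparison of CD4 with DP cells of WT thymus asked how the genes differ between the stages. DP WT replicates 1 and 2 held nearly no Xist, unlike all CD4 WT libraries, and the part of this difference was not tested. Fosl2, Junb and Ier2 were higher in CD4 cells, 3 of the 9 genes that could be tested in DP, where 55.1% of all genes were called and 28% were called higher. Fosl2 differed most, 1.10 ± 0.177 CPM in DP and 21.2 ± 1.97 in CD4, and its log2 fold change was 4.29 ± 0.16 (edgeR, adjusted p = 1.29e-09). Ier2 rose from 59.4 ± 8.53 to 195 ± 41.0 CPM, by 1.71 ± 0.18 (adjusted p = 0.000131). Both were called under all 16 alternatives. Junb rose from 279 ± 120 to 1177 ± 547 CPM, by 2.07 ± 0.54 (adjusted p = 0.0318), and the lowest CD4 library, at 666 CPM, lay above the highest DP library, at 413. Its call was lost without DP WT replicates 1 (adjusted p = 0.109) or 2 (0.0883) and without CD4 WT replicates 1 (0.0838) or 3 (0.0737), while the estimate stayed between 1.68 and 2.47. These 3 genes of the 9 were also the ones whose groups did not overlap, as for 62.7% of all genes. Atf3 had 8, 8 and 6 reads in DP WT and 22, 17 and 46 in CD4 WT. It passed the low-count filter here only through the CD4 libraries, in which it was higher, so its fit between stages is not used.

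The other 6 did not pass in that fit, and 5 of them passed once batches were paired. Fos was higher in CD4 in all 3 batches, by 1.26, 0.75 and 1.14, with 1.11 ± 0.68 unpaired (adjusted p = 0.244) and 1.05 ± 0.09 with the block (8.29e-06). Fosb was at 0.46 ± 0.08 with the block (adjusted p = 0.000672), Dusp1 at 0.84 ± 0.13 (0.00178), Zfp36 at 0.36 ± 0.06 (0.000393) and Jund at -0.49 ± 0.11 (0.00638). Unpaired, their log2 fold changes were 0.50 ± 0.63, 0.95 ± 0.57, 0.37 ± 0.21 and -0.45 ± 0.28, with adjusted p-values of 0.554, 0.236, 0.191 and 0.236. Junb with the block was at 2.05 ± 0.08 (5.19e-09). The block thus raised the count from 3 to 8 of 9, 7 higher and Jund lower, against 57.6% of all genes (29.3% higher and 28.3% lower). Jun was the gene that passed in neither, at -0.37 ± 0.55 (adjusted p = 0.613), and was 0.01 without CD4 WT replicate 2. Jund passed unpaired without CD4 WT replicate 3 (-0.74, 0.00244) and Zfp36 without CD4 WT replicate 2 (0.53, 0.0495). Without the libraries of batch 3 the called genes were Fosl2, Ier2 and Zfp36, higher, and Jund, lower, against 56.2% of all genes, and Junb stood at 2.07 (adjusted p = 0.0518).

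**Figure D4:**
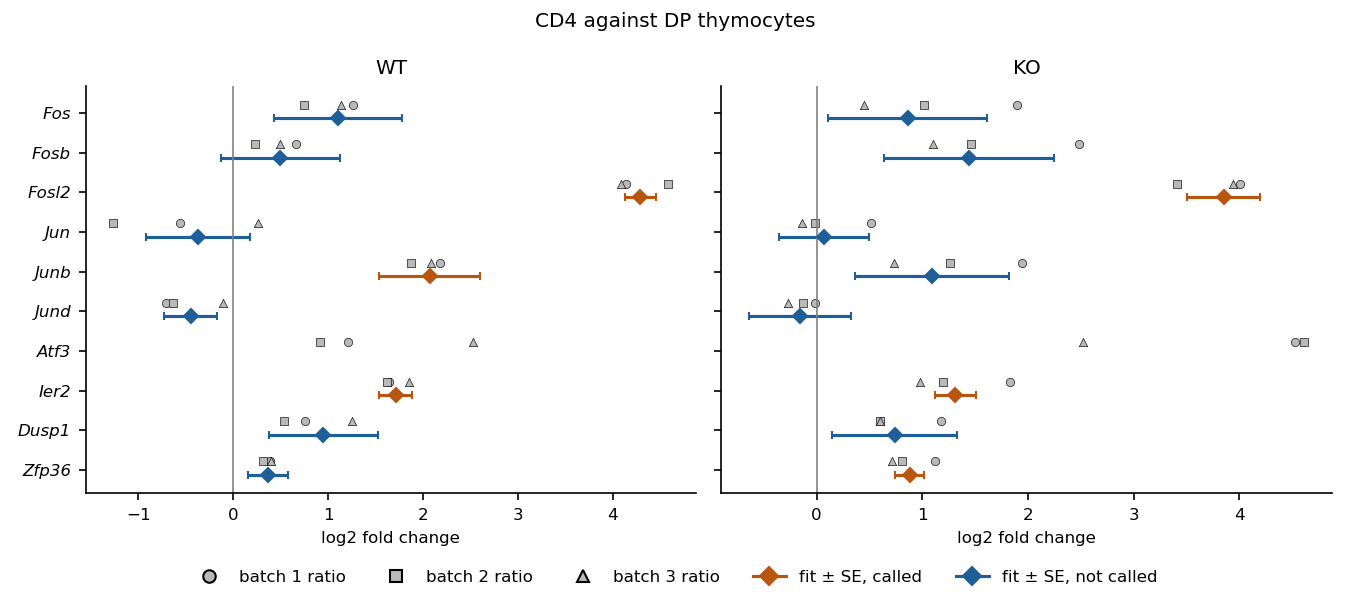
Log2 fold change of CD4 against DP cells in WT (left) and KO (right): grey symbols are ratios within batches, diamonds the edgeR estimate with SE, orange where called. Fosl2 lies far to the right in both, at 4.29 and 3.85, Jun and Jund lie near or below 0, and Atf3, too low in DP to be tested there, has no diamond.

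In KO thymus 3 of the 9 genes were higher in CD4 than in DP cells, where 21.8% of all genes were called and 13.9% were called higher. They were Fosl2 (3.85 ± 0.34, adjusted p = 0.000264), Ier2 (1.31 ± 0.19, 0.00296) and Zfp36 (0.88 ± 0.14, 0.00267). Zfp36 went from 113 ± 22.6 CPM in DP KO to 206 ± 14.8 in CD4 KO without overlap, and Ier2 from 57.6 ± 16.2 to 141 ± 2.89 CPM. These 3 were again the genes of the 9 whose groups did not overlap, as for 40.1% of all genes. Atf3, with 4, 2 and 25 reads in DP KO and 73, 58 and 143 in CD4 KO, again entered only through the CD4 libraries and is not counted. With the block 3 of the 9 were called among 39.4% of all genes: Fosl2, Zfp36 and Dusp1 (0.81 ± 0.16, adjusted p = 0.0442), while Ier2 stood at 0.0501. Without the libraries of batch 3 only Fosl2 (3.72) passed of the 9, against 30.3% of all genes. Junb rose from 393 ± 329 to 826 ± 387 CPM in the means and did not pass (1.09 ± 0.73, adjusted p = 0.372). Fos (0.86 ± 0.75, 0.497), Fosb (1.44 ± 0.80, 0.289), Dusp1 (0.74 ± 0.59, 0.46), Jun (0.07 ± 0.43, 0.935) and Jund (-0.16 ± 0.48, 0.857) did not pass. Jun was below 0 without DP KO replicates 1 (-0.23) or 2 (-0.03) or CD4 KO replicate 3 (-0.24), and Jund above 0 without DP KO replicate 3 (0.33) or CD4 KO replicate 1 (0.03). The WT and KO comparisons of stages share no libraries with each other, but each shares its libraries with the comparisons of KO with WT.

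The KO effect in CD4 was then set against that in DP within 1 model of all 12 libraries. It differed for 0 of the 9 genes that could be tested in DP by edgeR's test, with 0 at an unadjusted p under 0.05, where 27.6% of all genes were called. DESeq2 and limma-voom also called 0 of the 9, and edgeR with the block 0, with 0 at an unadjusted p under 0.05 and 32.7% of all genes called. Without the libraries of batch 3 it was 0 of 9 as well, with 1 at an unadjusted p under 0.05, against 31.6% of all genes. The SE of the difference shows how little could be resolved for the most variable genes: 1.06 for Fos (-0.27), 1.07 for Fosb (0.92) and 0.94 for Junb on the log2 scale. Zfp36, with 0.49 ± 0.28, had the smallest p, 0.108 (adjusted p = 0.232), so the smaller fall in CD4 than in DP was not shown to differ. Ier2, at -0.42 ± 0.30, passed without DP KO replicate 1 (-0.66, 0.0390), and Fosl2, at -0.46 ± 0.39, without CD4 KO replicate 3 (-0.85, 0.0363). The sign turned for Fos without DP KO replicate 3 (0.71) or CD4 WT replicate 3 (0.26), for Dusp1, at -0.24 ± 0.86, without the same libraries (0.34 and 0.26), and for Jund, at 0.26 ± 0.60, without DP KO replicate 1 (-0.0036) or CD4 KO replicate 3 (-0.17).

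Levels were compared between genes per kb of exon. Junb was the most abundant of the 10 in CD4 WT, at 640 ± 297 CPM per kb (SD, n = 3), in CD4 KO (449 ± 210) and in DP KO (214 ± 179). In DP WT Jund (152 ± 21.9) and Junb (152 ± 65.0) were level, followed by Zfp36 (134 ± 26.5) and Jun (127 ± 33.9), and the ranges of these 4 overlapped. In CD4 WT the lowest Junb library, at 362 CPM per kb, lay above the highest library of each other gene, the nearest being Dusp1 at 226 CPM per kb. Zfp36 (174 ± 39.3) and Dusp1 (139 ± 80.4) came next there and overlapped. Fos was 6th of the 10 in DP WT (53.0 ± 28.6) and 2nd in CD4 KO (165 ± 76.1). Fosb (17.2 ± 8.64 in DP WT, 49.4 ± 26.7 in CD4 KO) stood below Fos in every group. Fosl2 (0.188 ± 0.0301 in DP WT, 3.61 ± 0.336 in CD4 WT) and Atf3 (0.104 ± 0.0272 and 0.385 ± 0.343) were the lowest in all 4 groups. The Jund value uses the exon length of 1 copy.

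**Figure D5:**
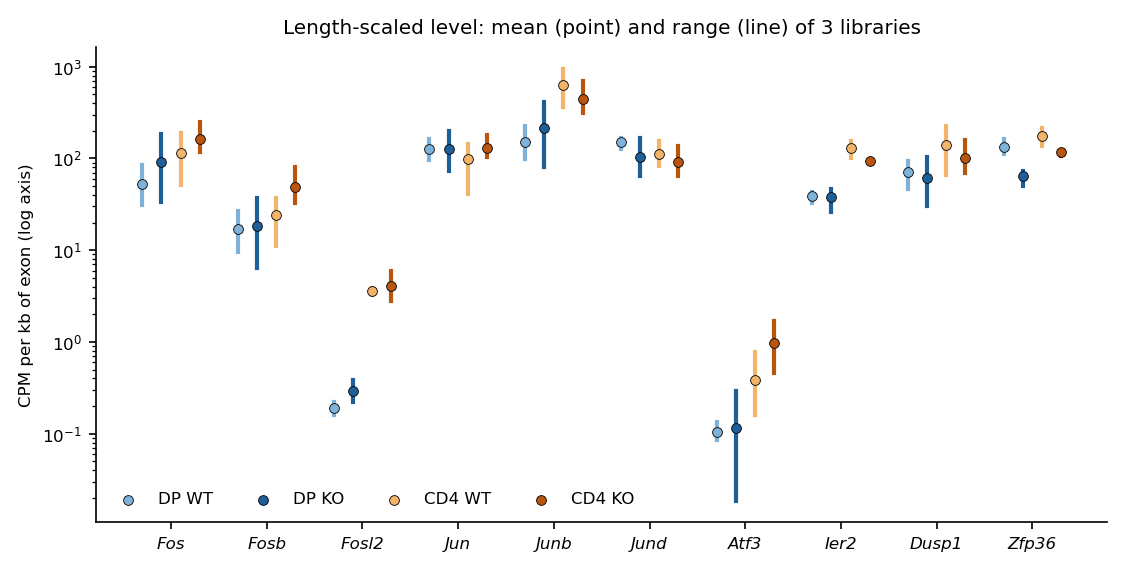
CPM per kb of exon (log axis) of the 10 genes in the 4 groups; points are means and lines span the 3 libraries. Junb stands above the others in CD4 WT at 640 CPM per kb, and Fosl2 and Atf3 lie lowest in each group.

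Between groups, the mean of Fos rose in the order DP WT, DP KO, CD4 WT and CD4 KO, and each neighbouring pair overlapped. Fosb and Atf3 had the same order, also with overlap between neighbours. Fosl2 had it too, with gaps from DP WT to DP KO and from DP KO to CD4 WT, while the CD4 groups overlapped. Junb had the order DP WT, DP KO, CD4 KO and CD4 WT, again with overlap. Ier2 had the order DP KO, DP WT, CD4 KO and CD4 WT, and the last 2 steps were free of overlap. Zfp36 had the order DP KO, CD4 KO, DP WT and CD4 WT, with a gap between DP KO and CD4 KO. Jund ran from CD4 KO through DP KO and CD4 WT to DP WT, and Dusp1 from DP KO through DP WT and CD4 KO to CD4 WT, all with overlap between neighbours. The 4 groups of Jun overlapped.

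The genes whose pattern over the 12 libraries was nearest to Fos, by the root mean square difference of centred log2 CPM among 9838 genes, were Rgs2 (0.25), Fosb (0.31), Sik1 (0.47) and Dnajb9 (0.48). Rgs2 encodes a regulator of G protein signals and went from 47.8 CPM in DP WT to 172 in CD4 KO as a mean. Nearest to Jun were Pim1 (0.31), Bambi (0.33), Plk2 (0.34) and Klf11 (0.35). Pim1, a kinase gene, and Plk2 are themselves on the list of other immediate early genes. Nearest to Junb were Dusp5 (0.37), Sik1 (0.38), Kctd12 (0.41) and Rgs2 (0.42). Dusp5 stood at 52.4 CPM in DP WT and 123 in CD4 WT. All of these values share the libraries and their batches.

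The other genes of the pathway were tested in the same fits, on lists chosen with earlier results of these data known. Their counts stand beside those over all genes, of which 16.8% were called higher and 14.1% lower in DP KO, and 20.9% higher and 18.8% lower in CD4 KO. Of other AP-1 and zipper partners 5 of 18 were higher and 1 lower in DP KO (Atf6, Batf, Jdp2, Mafg and Nfe2l1, and Creb1; 6 and 2 with the block), with a median log2 fold change of 0.06 against 0.01 over all genes. Atf6, a sensor of stress in the endoplasmic reticulum, rose by 0.91 ± 0.13 (adjusted p = 0.000298) and Batf, an AP-1 partner of lymphocytes, by 1.34 ± 0.20. In CD4 KO 4 of 19 were higher (Jdp2, Mafg, Atf5 and Bach1) and 4 lower (Nfe2l1, Ddit3, Nfe2l2 and Atf2; 5 and 5 with the block), with a median of -0.01. Jdp2, which encodes a repressor that pairs with JUN, rose by 2.58 ± 0.30 (adjusted p = 8.14e-05), and Nfe2l1, a zipper factor of proteasome genes, fell by 0.43.

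Of 40 other immediate early genes 6 rose and 9 fell in DP KO, and 6 rose and 11 fell in CD4 KO (10 and 13 with the block), with medians of -0.14 and -0.05. Myc, a driver of cell growth, rose by 2.02 ± 0.12 in DP KO (adjusted p = 8.91e-07). Nfkbia, the inhibitor of NF-kB, fell there by 1.10. In CD4 KO Skil, a co-repressor in TGF-beta signalling, fell by 1.64 ± 0.07 (adjusted p = 3.60e-07) and Id2, an inhibitor of E proteins, by 1.38. Of the EGR and NR4A genes 1 of 6 was lower in DP KO, Egr1 (-0.72 ± 0.14), and 4 of 7 in CD4 KO: Egr1 (-1.01 ± 0.18, adjusted p = 0.00346), Nr4a3 (-0.32 ± 0.09), Egr2 and Egr3. With the block Nr4a2 was called higher in both, at 1.64 in DP KO (adjusted p = 0.0410, and 0.289 without the block) and 1.68 in CD4 KO (0.0126 and 0.0830). These receptor response genes had medians of -0.38 in DP and -0.32 in CD4.

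Among MAP kinase phosphatases related to Dusp1, Dusp4 and Dusp6 were lower and Dusp7 was higher in DP KO, of 9 tested, with a median of -0.12. Dusp4, a nuclear phosphatase, fell by 2.69 ± 0.20 (adjusted p = 5.03e-06), and Dusp7 rose by 1.03. In CD4 KO 2 of 10 were higher (Dusp16 and Dusp4) and 4 lower (Dusp6, Dusp22, Dusp7 and Dusp10; 5 with the block, Dusp5 the further one), with a median of -0.44. Dusp6, an ERK phosphatase, fell by 1.43 ± 0.08 (adjusted p = 1.13e-06), and Dusp16, which acts on JNK, rose by 1.00. Among proteins that bind AU-rich elements, like ZFP36, Khsrp (-0.58 ± 0.09) and Zc3h12a (-0.61 ± 0.13) were lower in DP KO, 2 of 11. Zfp36l1, a paralogue of Zfp36, was at 0.53 there (adjusted p = 0.0597) and was called higher with the block (0.000276). In CD4 KO 4 of 11 were lower and 1 higher (Hnrnpd; 5 lower and 2 higher with the block). Zc3h12a, the gene of the ribonuclease Regnase-1, fell there by 0.92 ± 0.09 (adjusted p = 2.69e-05) and Zfp36l1 by 0.40, and Khsrp and Rc3h2 were the others.

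Of 25 kinases and serum response factor partners that act upstream of AP-1, 2 were higher (Rps6ka5 and Elk3) and 4 lower (Map3k1, Elk4, Rps6ka1 and Mapk12) in DP KO (3 and 4 with the block), with a median of -0.01. Rps6ka5, the gene of the nuclear kinase MSK1, rose by 1.12 ± 0.08 (adjusted p = 2.94e-06), and Map3k1 fell by 0.52. In CD4 KO 14 of 25 were lower and 3 higher (among them Rps6ka5 and Map2k3; 15 and 5 with the block), where 18.8% and 20.9% of all genes were, with a median of -0.19 against 0.00 over all genes. Rps6ka5 rose there by 1.51 ± 0.09 (adjusted p = 2.06e-06) and Mapk11, a p38 kinase, fell by 1.35. Heat shock genes, listed because these early genes respond to stress, had 3 higher (Hspd1, Hspe1 and Bag3) and 1 lower (Hmox1) of 14 in DP KO. In CD4 KO 2 of 15 were higher (Hspd1 and Bag3) and 2 lower (Hspa5 and Hsf1). Hspd1, a mitochondrial chaperonin, rose by 0.59 in DP and 0.61 in CD4, Hspe1, its partner, by 0.61 in DP, and Bag3, a co-chaperone, by 1.17 in CD4. The medians were 0.02 and 0.05.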

How the data were processed

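Poly(A) RNA of sorted DP and CD4 thymocytes was sequenced as paired reads, and the authors deposited raw counts per gene, 1 table for each cell type with 6 libraries each. Libraries were grouped by their titles. The submitters' processing notes name mm10, Subread 1.0.1, DESeq2 and R 4.1.5 without roles. Neither aligner nor strand setting is given in the sources used here, so reads of antisense or copied genes cannot be told apart. None of the 10 genes overlaps another annotated gene. Within groups, libraries differed by more than sampling noise (chi-square per degree of freedom 13.8 to 45.8), and all 12 were kept.

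Every comparison was fitted on the whole table with edgeR 4.0.16 (TMM, default low-count filter, quasi-likelihood test with the robust option) in R 4.3.3, with Benjamini-Hochberg adjustment over all genes tested, and called at an adjusted p under 0.05. Every adjusted p comes from this test unless another is named. SE is the log2 fold change divided by the root of F. The robust option was not part of the planned design: it was chosen after a fit without it had been seen, because it gave the call counts of an earlier analysis of these data. It changed none of the calls of the 10 genes in the 5 unblocked comparisons, but their counts under the block and the batch term depend on it: the batch term called 1 of the 10 with it and 6 without. The same procedure, without a block, was tested on simulated counts. These had the same dispersion for all genes and no batch difference, so the test does not cover genes as variable as most of the 10. CPM use TMM over 12 libraries, log2 CPM a prior count of 2. The limit of detection of 3 counts covers counting error only.

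The replicate number is the batch number per the labels, so it pairs libraries across groups. Deviations of same-numbered libraries from their group means correlated across genes at 0.02 to 0.32. The main fit had no block, and the blocked value is printed where it changes a call of the 10 genes or a list's count. Atf3, below the low-count filter in DP, is left out of counts between stages. The members and lists were chosen with earlier results of these data known. Genes named besides the 10 were Satb1, from each list those of smallest adjusted p or needed for a count of 5 or fewer, and the 4 nearest to Fos, Jun and Junb. Alternatives were DESeq2 1.42.0 size factors and Wald test, limma-voom (limma 3.58.1), no filter on low counts, a minimum mean count of 10, the block, 1 model over all 12 libraries, DP WT replicate 3 as the lone WT library, a minimum absolute log2 change of 1, and each library left out. The batch term, the fits without batch 3 and those without the robust option were added after seeing the data. Promoters were RefSeq sequences of GRCm38.p6 and 3′ untranslated regions GENCODE M21. Some genes of the lists are not reported here by name.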

Additional observations from a re-analysis of the deposited data

Results flagged for a closer look

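None of the 10 genes met a rule for a closer look, since groups of 3 libraries are too small for an outlier test and no difference between their KO effects in CD4 and DP cells passed the test. The rule was also run on Satb1 and, from each list, the called genes among the 2 of smallest adjusted p for KO against WT. For 14 of these genes the KO effects of CD4 and DP cells differed by edgeR's interaction test. On the log2 scale, as CD4 minus DP, the difference was 3.33 ± 0.25 for Dusp4 (adjusted p = 6.60e-07), which fell in DP and rose in CD4, and 1.24 ± 0.21 for Dusp16. It was -1.58 ± 0.11 for Dusp7 (adjusted p = 1.73e-07), which rose in DP and fell in CD4. The difference was -0.99 for Atf6, -1.22 for Batf, -0.68 for Nfe2l1, -1.35 for Myc, -1.39 for Skil and -1.07 for Id2. It was also below 0 for Mapk11 (-1.01), Zfp36l1 (-0.92) and Satb1 itself (-0.56), and above 0 for Rps6ka5 (0.41) and Khsrp (0.33). Adjusted p-values of the genes without one were 5.63e-06 to 0.0339, and all 14 also passed with the block. Other genes named above were outside this rule. Among them, Dusp22 (-1.31 ± 0.22, adjusted p = 0.000345), Atf5 (0.74 ± 0.15, 0.00178) and Ddit3 (-0.62 ± 0.14, 0.00397) also passed the interaction test. The cause of these differences was not tested.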

How the results depend on the processing

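The spread between libraries and the batch number set the limits here. Counts of 2 to 25 reads limit Atf3 in DP. In KO against WT, SEs of up to 0.84 limit Fos, Fosb, Jun, Junb and Dusp1, and in CD4 also Atf3 (0.69). Over all alternatives, 859 of 993 values of the 10 genes kept direction and side of the threshold, 34 lost a call, 54 gained one and 46 changed sign. The same was counted for Satb1 and, from each list, the called genes among the 2 of smallest adjusted p for KO against WT. Of their values 523 of 531 kept both, with 8 lost calls. These list genes were picked for a small adjusted p in the same data, so their share cannot be compared with that of the 10. Other genes of the lists are not in this count. The cause was not tested where none is given.

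Genes called over the whole table numbered 2009 in DP and 2392 in CD4 KO against WT with a minimum absolute log2 change of 1, 4410 for CD4 against DP in WT and 1537 in KO, and 2036 with DP WT replicate 3 as the lone WT library. With the replicate block CD4 against DP in KO gave 6658 (6420 without the robust option) in place of 3685. Of the 10 genes, the block without the robust option called 2 in DP KO, 7 in CD4 KO, 9 in the WT stages (9 with the robust option) and 8 in the KO stages. Without batch 3 it was 2 in DP KO, 2 in the KO stages and 1 for the interaction. Counts between stages, for the interaction and for the batch term include Atf3 here, which entered only through CD4 libraries. One model over all 12 libraries called 1 in CD4 KO, and a minimum change of 1 called 0, by construction. The batch term called 6 of the 10 with limma-voom and 6 without the robust option, in place of 1.

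Leaving out each library gave 3852 to 5645 genes and 1 to 2 of the members in DP KO, 5541 to 6724 and 0 to 3 in CD4 KO, 8457 to 9661 and 2 to 5 for the WT stages, 2223 to 3959 and 3 to 4 for the KO stages, 4362 to 5464 and 0 to 1 for the interaction, and 185 to 1445 and 0 to 4 for the batch term.

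Signs turned as follows, none of them a called change. In DP KO, Fosb was -0.12 with limma-voom, -0.13 with the replicate block (-0.13 without the robust option), -0.53 with the lone WT library and -0.44 without batch 3. Jun was -0.015 with DESeq2 size factors, -0.015 with the Wald test, -0.086 with limma-voom, -0.070 with the block (-0.070 without the robust option), -0.0027 in 1 model and -0.48 without batch 3. Junb was -0.070 with the lone WT library and -0.026 without batch 3, and Ier2 0.0083 with no low-count filter. In CD4 KO Fosl2 was -0.15 without batch 3. For the interaction Fos was 0.055 with limma-voom and 0.30 without batch 3, and Dusp1 0.15 without batch 3.

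Without 1 library, values of genes that changed sign ran from -0.18 to 1.32 (Fos), -0.89 to 0.57 (Fosb), -0.44 to 0.30 (Jun), -0.41 to 0.90 (Junb), -0.19 to 0.19 (Ier2) and -0.80 to 0.12 (Dusp1) in DP KO. In CD4 KO they ran from -0.17 to 0.40 (Fosl2), -0.68 to 0.029 (Jund) and -0.93 to 0.069 (Dusp1). They ran from -0.73 to 0.014 (Jun) in the WT stages, from -0.24 to 0.52 (Jun) and -0.58 to 0.33 (Jund) in the KO stages, and from -0.81 to 0.71 (Fos), -0.17 to 0.74 (Jund) and -0.74 to 0.34 (Dusp1) for the interaction.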

Other observations

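The inducible chaperone genes Hspa1a and Hspa1b, known targets of heat shock factor, varied between the KO libraries in another order than most of the 10 early genes in CD4. Hspa1a stood at 195, 185 and 180 CPM in DP WT replicates 1, 2 and 3 and at 34.8, 72.3 and 145 CPM in DP KO, where replicate 3 was the highest library and all 3 lay below DP WT. In CD4 WT it stood at 1009, 466 and 1005 CPM. In CD4 KO it stood at 1090, 606 and 320 CPM, so replicate 3 was there the lowest library, while for 8 of the 10 early genes it was the highest. Hspa1b, a near-identical copy with which reads can be shared, had 50.4, 92.6 and 193 CPM in DP KO and 1421, 794 and 448 CPM in CD4 KO. The pair was chosen after its values were seen, and the order of libraries was not tested. In the fits over all genes both were higher in CD4 than in DP cells of WT (Hspa1a 2.14, adjusted p = 0.00571; Hspa1b 2.19, 0.00488) and of KO (3.02, 0.0493; 3.01, 0.0438), the latter not with the block (0.204 and 0.188). Neither passed for KO against WT in DP (adjusted p = 0.217 and 0.201) or in CD4 (0.741 and 0.680).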
